A study of Sus scrofa with 30 samples.

Results

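The regions described here are stretches of the pig genome that carried trimethylated lysine 27 of histone H3 (H3K27me3) in both libraries made from 4-cell embryos. They were chosen by the peak calls themselves: a stretch was kept where peaks of both 4-cell H3K27me3 libraries covered the same 300 bp or more on chromosomes 1 to 18. By this rule 5783 regions were kept of 9549 shared stretches, and of 347709 joined peak intervals over all 30 libraries. They spanned 4.67 Mb, or 0.206% of the 2265.59 Mb of these chromosomes. All positions are on the pig build susScr11.

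The libraries came from native chromatin immunoprecipitation of very small cell numbers (ULI-NChIP-seq), and each has 1 list of broad peaks. H3K4me3 was profiled in siKDM5BC embryos, which are 4-cell embryos that developed from zygotes injected with siRNA to KDM5B/C, enzymes that remove methyl groups from H3K4. Untreated material gave H3K4me3 in GV oocytes (germinal vesicle, before maturation), in MII oocytes (mature eggs), at the 1-cell, 2-cell, 4-cell and 8-cell stages, in morulae and in blastocysts, and H3K27me3 at the same stages other than GV oocyte and 1-cell, with embryos made by IVF and 2 libraries in each of the 15 groups. No library with a control siRNA is labelled, so the untreated 4-cell libraries served as control, and injection and knockdown cannot be told apart. Nothing in the labels ties the 2 replicates to separate collections of oocytes or embryos, and p-values therefore reflect only how far these libraries differ from one another, which may be technical.

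H3K27me3 is written by Polycomb repressive complex 2, whose catalytic subunit is EZH2 or EZH1, and is read by Polycomb repressive complex 1. In differentiating cells it is best known at CpG-rich promoters of developmental regulators such as the HOX genes, where it goes with silencing, and in mammalian oocytes and early embryos it also lies in wide domains far from promoters. H3K4me3 marks the start sites of active and poised genes, and in oocytes it too can form wide domains. In libraries of whole embryos, fewer cells with a mark and less of the mark per cell cannot be told apart, and a stretch without a peak was not called, which does not show that it lacks the mark.

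Some lists stand apart in size. The 4-cell H3K27me3 lists held 24691 intervals (17.4 Mb) in replicate 1 and 36941 intervals (27.2 Mb) in replicate 2, so the regions made up 26.9% and 17.2% of the marked length of these libraries. The 2-cell H3K27me3 lists were short, with 3108 and 2312 intervals, and the 8-cell H3K27me3 lists were unequal, with 8288 intervals (5.50 Mb) in replicate 1 and 37556 (33.0 Mb) in replicate 2. The siKDM5BC lists covered the most, with 174 and 159 Mb against 55.4 and 31.0 Mb in untreated 4-cell embryos. The lists hold no read totals, so the depth of each library is unknown.

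The regions were short, and few of their peaks had a high score. Median length was 627 bp (quartiles 427 and 938.5 bp), 1264 regions reached 1 kb, and 21 reached 5 kb. In the authors' peak scores, the 4-cell H3K27me3 peaks that met the regions had a median fold enrichment of 3.82 in replicate 1 and 3.85 in replicate 2, against 3.68 and 3.67 for the rest of each list, and a median −log10 q of 1.67 and 1.91. A −log10 q of 3 or more was reached by 3.56% and 5.44% of these peaks, against 0.921% and 1.74% of the rest. Just inside the length limit, 1194 regions less than 100 bp above it lay a median of 35.1 kb from the nearest end of a coding gene, and just outside it 2035 shared stretches up to 100 bp below it lay at 38.0 kb. The 8-cell H3K4me3 libraries covered 27.7% and 40.4% of the length of those 1194 regions, and 27.1% and 35.2% of that of the 2035 stretches.

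With all peaks used, mean cover of the regions by other H3K27me3 libraries was highest at the 8-cell stage and lowest at the 2-cell stage. In MII oocytes, peaks covered 24.8% of region length in replicate 1 and 18.6% in replicate 2. In 2-cell embryos the values were 7.27% and 5.53%, and in 8-cell embryos 23.7% and 53.8%. Both oocyte libraries lay above both 2-cell libraries, and the 8-cell replicates differed from each other by more than any other pair. In morulae the cover was 9.91% and 10.6%, and in blastocysts it was 21.8% and 25.5%. The morula libraries lay below those of MII oocytes, 8-cell embryos and blastocysts. Across these 5 stages the means ranged over 32.3 percentage points, between 38.7% ± 21.3 (SD, n = 2) in 8-cell embryos and 6.40% ± 1.23 (SD, n = 2) in 2-cell embryos. An exact permutation test of F over all pairings of the 10 libraries, one-sided in F, gave p = 0.0233, also 0.0233 after Benjamini-Hochberg adjustment over 4 stage tests. This call did not hold up to the loss of single libraries: without any 1 of the 8 libraries of MII oocytes, 2-cell embryos, morulae or blastocysts the exact p was 0.108 to 0.152. The range was 47.4 points without 8-cell replicate 1 (exact p = 0.00423) and 17.3 points without 8-cell replicate 2 (exact p = 0.0275), and with regions drawn from a single 4-cell library it was 15.7 points (4-cell replicate 2 alone, exact p = 0.181) or 18.2 points (4-cell replicate 1 alone, exact p = 0.144). The lowest stage depended on the threshold for peaks. With only peaks of −log10 q of 3 or more in every library, 75 regions were left and morulae were lowest, at 33.9%. The 8-cell mean was then 75.5%, only 6.53 points above the 2-cell mean.

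**Figure D1:**
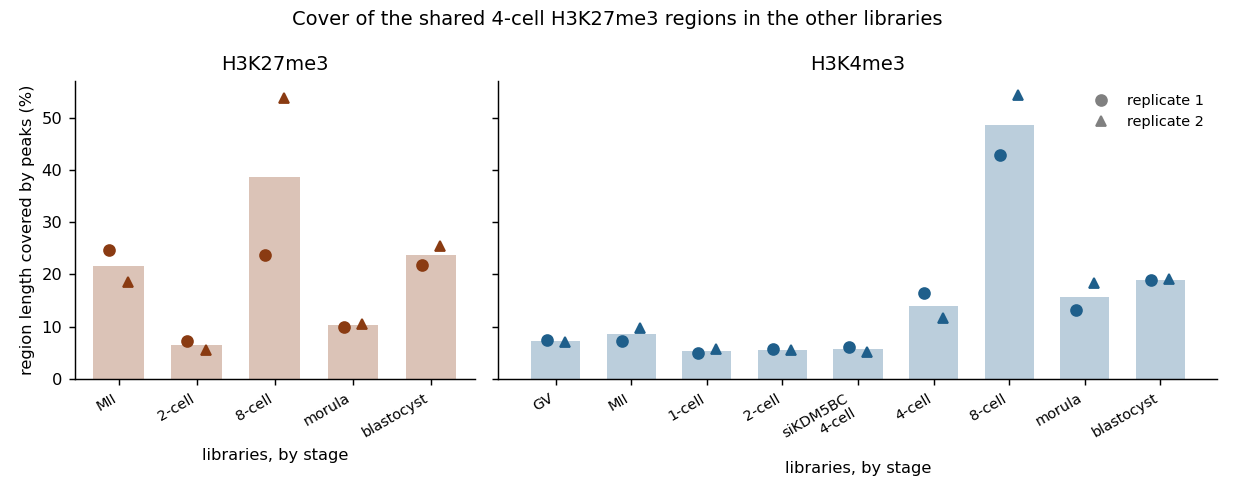
Percent of the length of the 5783 regions covered by peaks of each other library (y axis, from 0), by stage (x axis), for H3K27me3 on the left and H3K4me3 on the right; bars are means of 2 libraries, circles replicate 1 and triangles replicate 2. Both 8-cell H3K4me3 libraries, at 43.0% and 54.4%, stand above every other H3K4me3 library, and the 8-cell H3K27me3 replicates are far apart at 23.7% and 53.8%.

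Lists that cover more of the genome meet more of any set of regions, so each cover was also divided by the percent of chromosomes 1 to 18 that the same library covered. On this enrichment, the 2-cell and 8-cell stages came first. The 2-cell H3K27me3 libraries were enriched 83.4-fold and 99.9-fold, although they held only 1.98 and 1.25 Mb of peaks. The 8-cell libraries were enriched 97.4-fold and 36.9-fold, and the morula libraries 21.8-fold and 18.5-fold. All 6 of these embryo libraries lay above those of oocytes and blastocysts. MII oocytes gave 8.14-fold and 7.04-fold, and blastocysts 6.35-fold and 5.88-fold, with lists of 59.7 to 98.1 Mb. The log2 enrichment ranged over 3.90 between stage means, with 6.51 ± 0.18 in 2-cell embryos and 2.61 ± 0.08 in blastocysts (SD, n = 2 each; exact permutation test of F, p = 0.00423, adjusted p = 0.00564). A small set of very widely marked regions, described further on, carried much of the 2-cell value: without those 30 regions the 2-cell libraries were enriched 50.6-fold and 47.2-fold, against 88.2-fold and 36.0-fold in 8-cell embryos.

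The other mark was not used to choose the regions, and its cover was highest at the 8-cell stage. H3K4me3 peaks covered 7.46% and 7.05% of region length in GV oocytes, and 7.30% and 9.78% in MII oocytes. In 1-cell embryos the cover was 5.005% and 5.75%, and in 2-cell embryos 5.69% and 5.41%. All 8 of these libraries lay under 10%. Untreated 4-cell embryos gave 16.4% and 11.6%, and 8-cell embryos 43.0% and 54.4%. Morulae gave 13.1% and 18.4%, and blastocysts 18.9% and 19.1%, so the 8-cell libraries overlapped with no other stage. Stage means ranged over 43.3 percentage points, between 48.7% ± 8.08 in 8-cell embryos and 5.38% ± 0.530 in 1-cell embryos (SD, n = 2 each). A permutation test of F with 100000 random assignments of the 16 untreated libraries gave p = 0.00029, or 0.00058 after Benjamini-Hochberg adjustment. With regions drawn from a single 4-cell H3K27me3 library the range fell to 22.6 points (replicate 2 alone, permutation p = 3.0e-05) and 25.2 points (replicate 1 alone, permutation p = 0.00024).

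Set against how much each H3K4me3 list covered in all, the 8-cell stage was again highest. Over all the regions, 1-cell and 2-cell embryos came close to the genome level. The 8-cell libraries were enriched 15.2-fold and 15.5-fold in the regions. Untreated 4-cell embryos gave 6.69-fold and 8.47-fold, and blastocysts 3.81-fold and 3.73-fold. These 3 stages did not overlap. Morulae gave 2.46-fold and 3.09-fold, MII oocytes 2.71-fold and 2.27-fold, and GV oocytes 1.67-fold and 2.26-fold. The 1-cell libraries, at 1.65-fold and 0.941-fold, and the 2-cell libraries, at 1.02-fold and 1.15-fold, lay closest to equal cover of regions and chromosomes. Without the 30 very widely marked regions these values fell below the genome level. They were then 0.668-fold and 0.467-fold in 1-cell embryos, and 0.493-fold and 0.539-fold in 2-cell embryos. The 8-cell values were then 14.5-fold and 15.1-fold. The log2 enrichment was 3.94 ± 0.02 in 8-cell embryos and 0.12 ± 0.13 in 2-cell embryos, a range of 3.82 (SD, n = 2 each; permutation test of F, p = 3.0e-05, adjusted p = 0.00012). The order depends on the threshold for peaks: with only peaks of −log10 q of 2 or more in every library, 818 regions were left and the 8-cell mean exceeded the 2-cell mean by 1.16 (permutation p = 0.135 for F over all stages), with MII oocytes highest at 5.87 and morulae lowest at 2.48, and with −log10 q of 3 or more, 75 regions were left and the difference was −4.40 (permutation p = 0.00068), again with MII oocytes highest. The cover itself was still highest at the 8-cell stage in both cases, at 50.7% and 85.4% of region length.

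**Figure D2:**
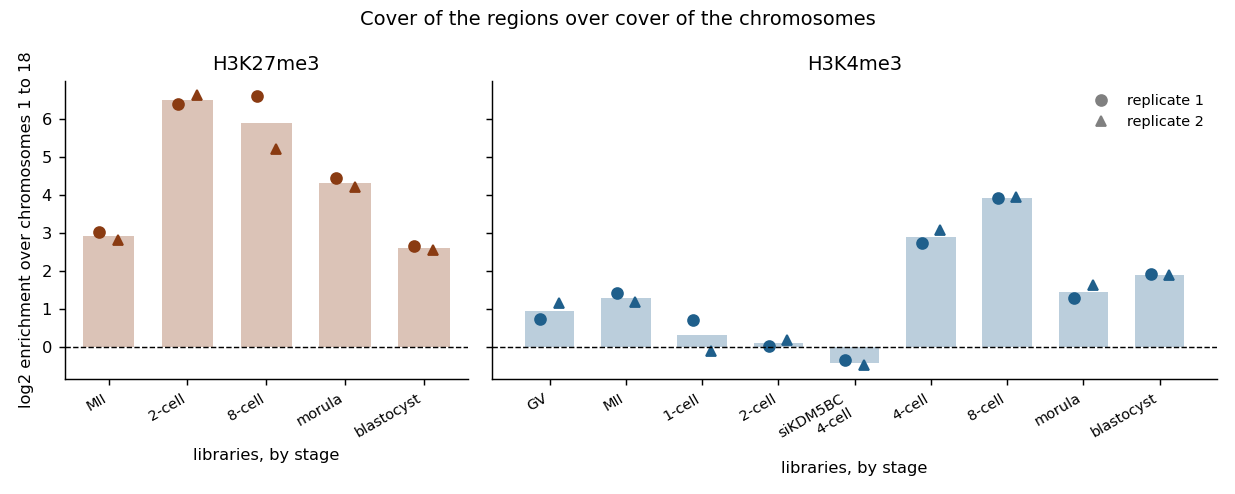
Log2 of the percent of region length covered over the percent of chromosomes 1 to 18 covered (y axis), by stage (x axis), for H3K27me3 on the left and H3K4me3 on the right; bars are means of 2 libraries, circles and triangles are replicates 1 and 2, and the dashed line marks equal cover. With all peaks used, as here, the siKDM5BC libraries, at −0.33 and −0.46, are below the line, and untreated 4-cell embryos, at 2.74 and 3.08, are above it.

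The 8-cell H3K4me3 peaks that met the regions were broader and less often strong than the other 8-cell H3K4me3 peaks. Their median length was 1093.5 bp in replicate 1 and 1379 bp in replicate 2, against 668 and 700 bp for the rest of each list. Their median fold enrichment in the authors' scores was 3.28 and 3.34, against 3.27 and 3.24 for the rest. A −log10 q of 3 or more was reached by 4.45% and 8.44% of them, against 21.03% and 21.6% of the rest. These are descriptions of peaks within a library, which are not replicates. A longer peak meets any set of regions more readily, and the lengths were not corrected for this. The 8-cell H3K27me3 peaks that met the regions were also longer, with medians of 891 and 1510 bp against 374 and 562 bp.

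Stretches found in only 1 of the 2 4-cell H3K27me3 libraries show how much of this goes with being called in both. There were 39516 such stretches of 300 bp or more (29.4 Mb), of similar median length at 642 bp. The 8-cell H3K4me3 libraries covered 43.0% and 54.4% of the regions and 15.1% and 21.8% of the single-library stretches. For 8-cell H3K27me3 the cover was 23.7% and 53.8% of the regions and 4.63% and 20.4% of the stretches, and for untreated 4-cell H3K4me3 16.4% and 11.6% of the regions and 4.42% and 2.61% of the stretches. In each of these 6 libraries the regions were covered more than the single-library stretches. The difference was not tested.

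In siKDM5BC embryos H3K4me3 covered less of the regions than in untreated 4-cell embryos, although it covered more of the genome. The siKDM5BC libraries covered 6.09% and 5.10% of region length, against 16.4% and 11.6% in untreated 4-cell libraries. The same lists covered 7.67% and 7.03% of chromosomes 1 to 18 in siKDM5BC embryos, against 2.45% and 1.37% in untreated embryos. The groups did not overlap in either value, and they differed in opposite directions. The mean cover of the regions was 5.60% ± 0.698 in siKDM5BC and 13.98% ± 3.38 in untreated embryos, a difference of −8.38 points (SD, n = 2 each; exact permutation test, two-sided, p = 0.333). The log2 enrichment was −0.40 ± 0.09 in siKDM5BC and 2.91 ± 0.24 in untreated embryos, a difference of −3.31 (SD, n = 2 each; exact p = 0.333). With 2 libraries against 2, 0.333 is the smallest p this test can give, so neither difference can pass 0.05. With regions drawn from a single 4-cell H3K27me3 library the difference in cover was −2.65 points (replicate 2 alone) and −2.86 points (replicate 1 alone). An enrichment below the genome level in siKDM5BC embryos was seen only with all peaks used. With peaks of −log10 q of 2 or more it was 3.06-fold and 2.83-fold, against 15.7-fold and 22.2-fold in untreated embryos. At 3 or more it was 20.4-fold and 21.7-fold, against 60.6-fold and 150-fold.

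A region was counted as held by another group where at least 50% of it was covered in both libraries, and the same count over all 1 kb bins of chromosomes 1 to 18 gave the background. For H3K27me3, 531 regions (9.18%) were held in MII oocytes, against 1.55% of bins. The 2-cell embryos held 52 (0.899%, against 0.00852% of bins) and the 8-cell embryos 887 (15.3%, against 0.125% of bins). Morulae held 212 regions (3.67%, against 0.167% of bins) and blastocysts 738 (12.8%, against 2.06% of bins). The share of regions was above that of bins at all 5 stages, by the largest ratios at the 2-cell and 8-cell stages. Without the 30 very widely marked regions, 23 of the 52 were left at the 2-cell stage and 857 of the 887 at the 8-cell stage. No base of 1285 regions (22.2%) was covered in any of the 10 other H3K27me3 libraries. The share of bins with no such base was not counted, so this number has no background beside it.

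For H3K4me3, 1613 regions (27.9%) were held in 8-cell embryos, against 1.57% of bins. Blastocysts held 644 regions (11.1%, against 3.76% of bins) and morulae 494 (8.54%, against 4.11% of bins). Untreated 4-cell embryos held 142 (2.46%, against 0.865% of bins). The remaining groups were close to the background or below it. GV oocytes held 97 regions (1.68%, against 1.8% of bins), MII oocytes 115 (1.99%, against 1.17% of bins), 1-cell embryos 57 (0.986%, against 1.48% of bins) and 2-cell embryos 79 (1.37%, against 2.1% of bins). The siKDM5BC embryos held 104 regions (1.80%, against 5.05% of bins). Both marks met at the 8-cell stage in 632 regions, which were 71.3% of the 887 with H3K27me3 and 39.2% of the 1613 with H3K4me3. The same rule also gives regions of each mark in 8-cell embryos, anywhere on these chromosomes. Of their H3K27me3 length, 51.3% lay in their H3K4me3 regions, and of their H3K4me3 length 4.36% lay in their H3K27me3 regions. These are shares of length and not counts, and the differences were not tested. At least 1 of the 14 other groups held 2629 regions (45.5%), against 11.4% of bins.

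Most regions were found in few other libraries. Of the 28 libraries other than the pair that chose the regions, none covered 50% or more of 1222 regions (21.1%). No library covered a single base of 616 (10.7%). Bins were not counted by number of libraries, so these shares cannot be read as a trait of the regions. Only 11.4% of bins were held in both libraries of any other group. Between 1 and 5 libraries covered 3438 regions, between 6 and 10 covered 814, and between 11 and 20 covered 272. Only 7 regions fell between 21 and 25 libraries, and 30 regions were covered in 26 to 28. The 1222 regions with no other library lay in gene bodies in 65.96% of cases and at a median of 25.3 kb from a gene end, against 50.3% and 35.6 kb for all regions.

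**Figure D3:**
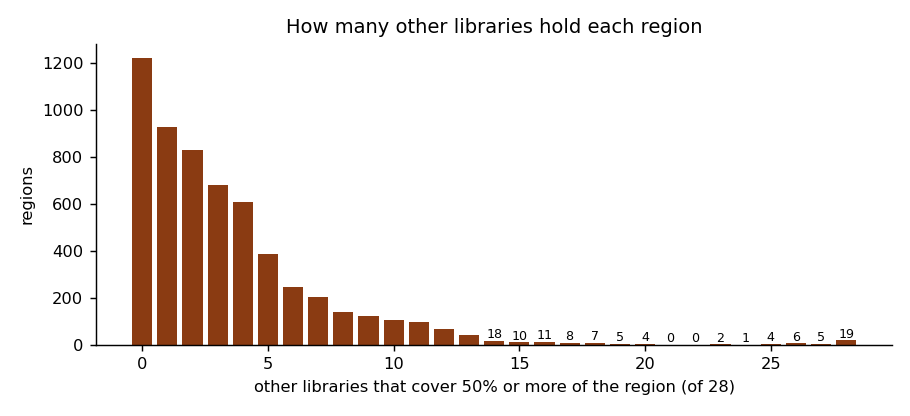
Number of regions (y axis) by how many of the 28 other libraries covered at least 50% of the region (x axis). The counts fall away from 1222 regions with no such library to 4 with 20, none has 21 or 22, and 37 have 23 to 28, of which 30 have 26 to 28.

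The 30 regions covered in 26 or more libraries had both marks, at oocyte and embryo stages alike, and 19 of them were covered in all 28. They added up to 147 kb, or 3.16% of region length, and lay on 14 chromosomes, with 6 of them (94.4 kb) on chromosome 10. Their 4-cell H3K27me3 peaks were strong, with a median fold enrichment of 10.5 and 12.3 and a median −log10 q of 16.8 and 22.4, against 3.82 and 3.85 and 1.68 and 1.92 over all regions. The part of peak strength in their wide cover was not tested. Leaving them out gave an 8-cell H3K4me3 cover of 41.2% and 53.0%, and an 8-cell H3K27me3 cover of 21.4% and 52.4%.

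The longest region, chr10:19414722-19457218 (42497 bp), lay over an end of SUSD4, which encodes a membrane protein with sushi domains. H3K27me3 covered 100% and 99.9% of it in MII oocytes, 99.8% and 99.7% in 2-cell embryos, 95.6% and 99.9% in 8-cell embryos, 73.6% and 73.3% in morulae, and 90.1% and 97.2% in blastocysts. H3K4me3 covered 92.6% and 90.7% of it in siKDM5BC embryos, against 100% and 99.9% in untreated 4-cell embryos, and between 77.03% and 100% in the libraries of the other stages. The next longest, chr10:24932455-24962310 (29856 bp), reached the uncharacterised gene LOC102162336 and was covered by 76.3% or more in all 28 libraries. It is in the same 1 Mb window as KDM5B, one of the genes targeted by the siRNA, with 5 regions and 22 coding genes in that window. A further region in the body of SUSD4, chr10:19483077-19495651 (12575 bp), was covered by 50% or more in 26 libraries. Its lowest H3K27me3 cover was 16.2%, in morula replicate 2.

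Other regions of the group were shorter. The region in the body of EEA1, which tethers early endosomes, was chr5:90227720-90235281 (7562 bp) and was covered by 59.5% to 100% in the H3K27me3 libraries. At chr4:46447156-46448159 (1004 bp), 81348 bp from TMEM64, every one of the 28 libraries covered 97.3% or more, and the authors' fold enrichment reached 43.0 and 41.1 in the 4-cell H3K27me3 libraries. The region chr15:1260-3803 (2544 bp) began 0.00126 Mb from the end of its chromosome, and chr17:63385371-63387300 (1930 bp) lay 0.0819 Mb from a chromosome end. These regions were named for their length or their cover in other libraries.

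A cluster on chromosome 5 held more regions and more region length than any other. Between positions 39996318 and 40206996, 32 regions added up to 129577 bp. The 3 longest lay 89970, 156746 and 202140 bp from the nearest coding gene, LOC110260582. In the 1 Mb window from 40 Mb, whose annotated coding genes are ALG10 and SYT10, 33 regions spanned 124 kb. H3K27me3 covered 72.8% and 33.4% of that length in MII oocytes, 3.796% and 4.30% in 2-cell embryos, 68.8% and 95.7% in 8-cell embryos, 57.7% and 66.4% in morulae, and 93.5% and 98.5% in blastocysts. It was low in 2-cell embryos and high at the later stages. H3K4me3 covered 6.70% and 5.08% in siKDM5BC embryos, against 58.7% and 26.7% in untreated 4-cell embryos. Over the other stages it covered 9.64% and 18.4% in GV oocytes, 11.85% and 22.3% in MII oocytes, 2.44% and 3.29% in 1-cell embryos, 2.4999% and 2.83% in 2-cell embryos, 86.6% and 97.6% in 8-cell embryos, 41.5% and 60.5% in morulae, and 98.9% and 99.1% in blastocysts. Both marks covered nearly all of this region length in blastocysts and little of it in 2-cell embryos.

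Single regions of this cluster show the same order. At chr5:40140669-40155505 (14837 bp) H3K4me3 was not called in the siKDM5BC libraries and covered 72.0% and 31.4% in untreated 4-cell embryos. In 8-cell embryos it covered 89.1% and 100%, and in blastocysts 100% and 100%. At chr5:40073893-40087148 (13256 bp) it was again not called in siKDM5BC and covered 46.1% and 30.2% in untreated 4-cell embryos. The region chr5:40186063-40200510 (14448 bp) was an exception, with H3K4me3 over 42.6% and 22.2% in siKDM5BC embryos, against 64.0% and 43.4% in untreated 4-cell embryos. A region on chromosome 9, chr9:63386151-63398181 (12031 bp), 222047 bp from MROH9, was alike: no siKDM5BC peak, 54.8% and 28.5% in untreated 4-cell embryos, 91.5% and 100% in 8-cell embryos and 96.3% and 100% in blastocysts.

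Further windows with much region length lay on chromosomes 14 and 6. On chromosome 14 from 74 Mb, 28 regions (32.3 kb) lay around CDH23, a cadherin of the tip links of hair cells. H3K4me3 was not called on them in the siKDM5BC libraries, against 9.80% and 6.35% of their length in untreated 4-cell embryos, and covered 33.96% and 57.4% in 8-cell embryos. On chromosome 6 from 66 Mb, 32 regions (30.9 kb) lay in a window with the single coding gene KCNAB2, and H3K27me3 covered 68.5% and 54.9% in MII oocytes and 26.2% and 40.1% in blastocysts. In the chromosome 14 window H3K27me3 covered 10.1% and 3.49% in MII oocytes and 12.5% and 9.45% in blastocysts, so the oocyte libraries lay above the blastocyst libraries in the chromosome 6 window and not in this one.

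Some regions were marked by H3K4me3 in 8-cell embryos and by few other libraries. Of the 3438 regions covered in 1 to 5 other libraries, 885 (25.7%) were held by 8-cell H3K4me3, against 27.9% of all regions. Of those covered in 6 to 10 other libraries the share was 57.1%, so it was not raised among regions with few other libraries. The longest with at most 5 other libraries, chr2:50452365-50456354 (3990 bp), was 41082 bp from LOC110259573. H3K27me3 covered 87.7% and 100% of it in 8-cell embryos, and H3K4me3 100% and 95.3%. In the body of PLXNA4, a semaphorin co-receptor, chr18:16785453-16789121 (3669 bp) had no H3K4me3 peak in siKDM5BC embryos, against 14.5% and 6.92% in untreated 4-cell embryos, and 75.8% and 100% in 8-cell embryos. At chr13:195730596-195733632 (3037 bp), 63911 bp from HUNK, 8-cell H3K4me3 covered 50.6% and 100%, and neither siKDM5BC nor untreated 4-cell libraries had an H3K4me3 peak.

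Some regions had H3K27me3 peaks in the 4-cell libraries only. Of the 6 longest with no base covered in any other H3K27me3 library, the first lay in SEMA3G, a secreted semaphorin, at chr13:34581090-34583660 (2571 bp). H3K4me3 there covered 71.3% and 0% in untreated 4-cell embryos and 37.0% and 100% in 8-cell embryos. Others lay in DIP2C, in NPAS2, which encodes a circadian transcription factor, in DLEC1 and in RAPGEF1. The region chr14:56952973-56955191 (2219 bp), 71927 bp from SLC35F3, and the region chr1:271573308-271575236 (1929 bp) in RAPGEF1 had no base under a peak of either mark in any of the 28 other libraries. In the authors' scores of the 4-cell H3K27me3 peaks, fold enrichment was 3.49 and 3.65 for the first and 3.89 and 4.26 for the second. The 3.49 in replicate 1 was the lowest fold enrichment in that peak list.

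Regions called for H3K4me3 in siKDM5BC embryos alone, or in untreated 4-cell embryos alone, were counted next. By 50% or more in both siKDM5BC libraries, with no base in either untreated 4-cell library, 8 regions (0.138%) were covered, against 2.13% of bins. Conversely, 59 regions (1.02%) were held in untreated 4-cell embryos with no base in either siKDM5BC library, against 0.00742% of bins. These 59 were 41.5% of the 142 regions held in untreated embryos, and for bins that share was 0.858% of 19587. The difference between regions and bins was not tested. The longest of the 8, chr15:139857997-139858813 (817 bp), lay in SNED1, which encodes a matrix protein, and was covered fully in both siKDM5BC and in both MII oocyte H3K27me3 libraries. A region in ADAMTS8, a secreted metalloprotease, chr9:57100570-57101302 (733 bp), was covered by 100% and 87.9% in siKDM5BC embryos and not in untreated 4-cell embryos. It was covered fully by H3K4me3 in GV and MII oocytes.

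Most regions lay over 5 kb from coding gene ends, in about the same share as bins, and 50.3% lay in gene bodies. The median distance to the nearest end of a coding gene was 35.6 kb, against 46.7 kb for 1 kb bins. Of the regions, 86.3% lay beyond 5 kb of any coding gene end, against 86.6% of bins, and 4.15% lay within 1 kb, against 4.36% of bins. Far from genes they were rarer: 41.5% lay more than 50 kb away, against 48.6% of bins. Of region length, 48.6% lay in gene bodies, against 47.7% of chromosomes 1 to 18. The H3K4me3 regions that the same rule gives in untreated 4-cell embryos differed in kind, with a median distance of 0.555 kb and 53.9% within 1 kb of a gene end.

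**Figure D4:**
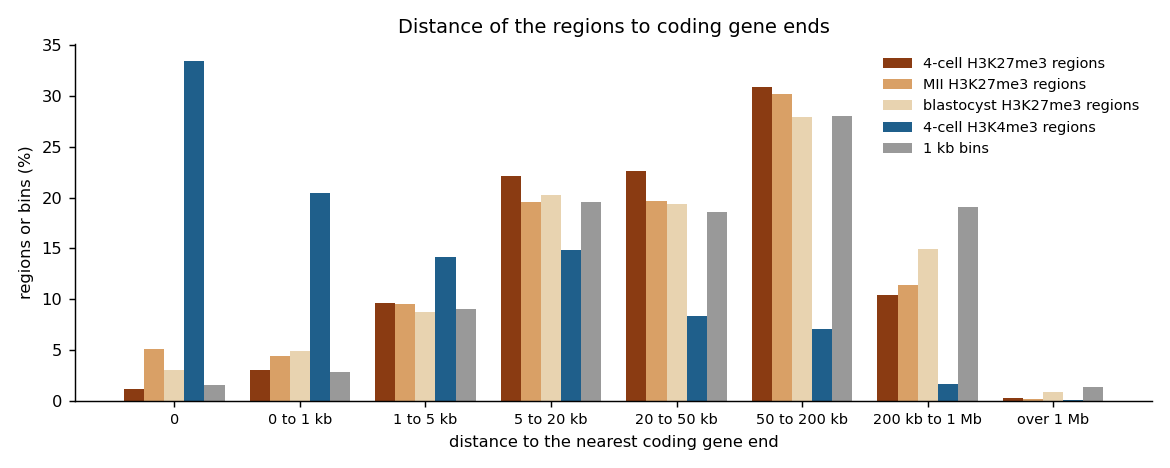
Share of regions or bins in percent (y axis) by distance to the nearest coding gene end (x axis), for the 4-cell H3K27me3 regions, for the regions the same rule gives in MII oocytes, blastocysts and 4-cell H3K4me3 libraries, and for all 1 kb bins. Of the 4-cell H3K27me3 regions, 1.11% lie on a gene end and 10.4% between 200 kb and 1 Mb from one, against 1.56% and 19.1% of bins, while 33.4% of the 4-cell H3K4me3 regions lie on an end.

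The distal share of 4-cell marking was close to that of the chromosomes as a whole. Among the H3K27me3 stages only 8-cell embryos had a higher share. The share of marked length that lay beyond 5 kb of any gene end was 83.2% and 83.2% in MII oocytes, 84.7% and 86.0% in 2-cell embryos and 87.7% and 87.6% in 4-cell embryos. It was 89.6% and 90.1% in 8-cell embryos, 81.3% and 81.4% in morulae, and 83.9% and 84.1% in blastocysts. Of all length of chromosomes 1 to 18, 87.6% was distal. The 4-cell libraries were at that level, the 8-cell libraries above it and the other stages below it. No stage overlapped with any other in this share, so the separation was not particular to the 4-cell and 8-cell libraries. Stage means ranged over 8.47 percentage points, between 89.9% in 8-cell embryos and 81.4% in morulae (n = 2 each; exact permutation test of F over 10395 pairings, p = 9.62e-05, the smallest it can give, adjusted p = 0.000192 over 2 position tests). This test includes all peaks of the 4-cell libraries, not the shared regions alone. Among the regions, those held in both 8-cell H3K27me3 libraries lay at a median of 45.8 kb, those held in MII oocytes at 56.1 kb and those held in untreated 4-cell H3K4me3 at 19.7 kb.

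Along the chromosomes, the regions were modestly more frequent near the ends. The outer 5 Mb held 11.3% of region length, against 7.94% of chromosome length. In the outermost 1 Mb, regions were 1.60 times as frequent as bins, and between 1 and 2 Mb from an end 1.62 times. From 2 to 5 Mb the ratio was 1.33, and between 20 and 40 Mb it was 0.761. MII oocytes were more concentrated at the ends, with ratios of 4.91 in the outermost 1 Mb and 6.16 in the next, and 55.9% of their shared H3K27me3 length in the outer 5 Mb. The share of all marked length in that zone was 43.1% and 43.6% in MII oocytes, 14.9% and 12.2% in 2-cell embryos and 11.5% and 10.1% in 4-cell embryos. It was 12.3% and 12.4% in 8-cell embryos, 16.3% and 17.3% in morulae, and 21.6% and 22.4% in blastocysts. Stage means ranged over 32.6 points, between 43.4% in MII oocytes and 10.8% in 4-cell embryos (n = 2 each; exact permutation test of F, p = 0.000289, adjusted p = 0.000289). The MII libraries lay above all others, and the 4-cell mean was the lowest of the 6 stages.

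**Figure D5:**
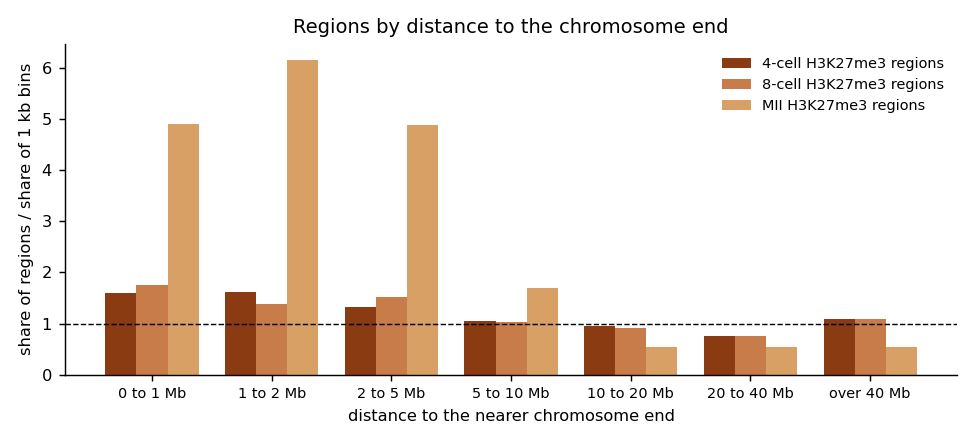
Share of regions over share of 1 kb bins (y axis) by distance to the nearer chromosome end (x axis), for the 4-cell H3K27me3 regions and for those the same rule gives in 8-cell embryos and MII oocytes; the dashed line marks equal shares. The 4-cell regions stay between 0.761 and 1.62, and the MII regions reach 6.16.

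The chromosomes differed in density by more than 3-fold. Chromosome 14 held 39.2 regions per 10 Mb, chromosome 3 held 38.0 and chromosome 6 held 35.4. The sparsest were chromosome 8 with 11.4, chromosome 11 with 14.3 and chromosome 16 with 15.5 per 10 Mb. Across the 18 chromosomes, which are not independent replicates, density went with the number of coding genes per Mb (Pearson r = 0.52, Spearman rho = 0.71). It went more closely with the density of 8-cell H3K27me3 regions (r = 0.89, rho = 0.90) than with that of MII regions (r = 0.30, rho = 0.40), which is given as a description only. All these counts share the same build and the same kind of peak list. Regions less than 50 kb apart formed 3674 clusters, of which 2638 were single regions, and 140 clusters of 5 or more held 966 regions (16.7%).

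Few coding genes had a region at an end. A region lay within 1 kb of either end of 256 of 18722 coding genes (1.37%), and in the body or within 5 kb of 1977 (10.6%). These counts use the peaks that chose the regions and are a description. None of the 36 HOX genes, 113 other homeobox and PAX genes or 107 genes of SOX, TBX, FOX, GATA, ZIC and bHLH factors had a region at an end. With 1.37% of all coding genes so marked, little is read from a count of 0 in lists of this size. At other stages H3K27me3 lay at an end in both libraries for 24 HOX genes in MII oocytes and 21 in blastocysts, 57 homeobox and PAX genes in MII oocytes and 84 in blastocysts, and 65 genes of the last list in MII oocytes and 73 in blastocysts. Of all coding genes, 2120 were so marked in MII oocytes, 3088 in blastocysts and 477 (2.55%) in 4-cell embryos. This measure needs peaks of both libraries at an end but no shared region there, unlike the 1.37% above. The list counts of 0 in 4-cell embryos are of shared regions, so they are not like for like with those of other stages. Ribosomal protein genes (0 of 76) and genes of the proteasome and respiratory complex I (0 of 73) had none, as had oocyte and maternal-effect genes (0 of 31), olfactory receptor genes (0 of 10) and genes of H3K4 and H3K27 methylation enzymes (0 of 34).

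Developmental ligands and imprinted genes included 2 marked genes each. Of 59 genes of WNT, FGF, BMP and hedgehog ligands, WNT7A (1455 bp of region length at an end) and WNT3A (322 bp) had a region, and of 48 imprinted genes MAGEL2 (1302 bp) and MKRN3 (1139 bp), neighbours in the imprinted Prader-Willi domain known in human and mouse. These small counts are 3.39% and 4.17% of their lists, beside 1.37% of all coding genes. At MKRN3 the length marked by H3K27me3 near its ends was 931 and 946 bp in 8-cell embryos, 1548 and 1198 bp in morulae and 1859 and 1774 bp in blastocysts, with no peak in MII oocytes or 2-cell embryos. Of 33 pluripotency and early lineage genes, ESRRB, a nuclear receptor of naive pluripotency in mouse, had 657 bp, and HNF4A had 1 bp. At ESRRB, 8-cell libraries marked 1116 and 2001 bp with H3K27me3 and 2001 and 2001 bp with H3K4me3, while siKDM5BC embryos had no H3K4me3 peak and untreated 4-cell embryos had 0 and 956 bp. One gene each was met among 238 zinc finger genes (ZNF175), 33 cadherin and protocadherin genes (CDH22) and 57 genes of neuronal adhesion and glutamate receptors (GRID1). In the last list 19 genes (33.3%) had a region in the body or within 5 kb, against 10.6% of all coding genes. Their median length was 628 kb, against 20.7 kb for all coding genes, and the part of gene length in this share was not tested.

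Genes with much region length in or near the body were mostly long. SUSD4 had 54114 bp in 2 regions. CSMD2 had 16003 bp in 17 regions over 646.642 kb, CDH23 had 15193 bp in 16 regions, and ATP2B2, a calcium pump of the plasma membrane, had 14477 bp in 18 regions. DIP2C, LOC102162336, EEA1, CELF4, DSCAML1, KCNQ1 and EPHB1 followed with 13039 to 10741 bp. KCNQ1, a potassium channel gene in an imprinted domain in human and mouse, had 11672 bp in 14 regions, none of it at an end. Of the 12 genes with the most region length within 1 kb of an end, STAB1, a scavenger receptor, had 2001 bp and TSSK1B, a kinase of the testis, 1449 bp. Neither had an H3K27me3 peak at its ends in 2-cell embryos, morulae or blastocysts. PR39, a pig antimicrobial peptide, had 2001 bp, under the region chr13:30952488-30959636. That region was covered by H3K4me3 over 13.8% and 0% in siKDM5BC embryos, against 61.9% and 73.7% in untreated 4-cell embryos.

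The 256 genes with a region at an end were marked by H3K4me3 in both libraries less often than all coding genes at most stages. In untreated 4-cell embryos 117 of them (45.7%) carried H3K4me3 at an end, against 66.9% of all coding genes, and in GV oocytes 115 (44.9%), against 70.0%. In 8-cell embryos the figures were close, with 172 (67.2%) against 68.6%. H3K27me3 was more frequent on them than on all coding genes at every other stage profiled for it. The figures were 73 (28.5%) against 11.3% in MII oocytes and 67 (26.2%) against 16.5% in blastocysts. In 8-cell embryos they were 48 (18.75%) against 0.828%, and in 2-cell embryos 14 (5.47%) against 0.101%. Morulae gave 13 (5.08%) against 2.75%. Neighbouring genes share regions, so these shares were not tested.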

How the data were processed

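The files hold 1 broad peak list per library, for 30 libraries. Per the submitters' processing notes, Bowtie2 2.4.1, MACS2 and the build susScr11 were used. Sources used here did not state an input control, a calling threshold or read filters. The signal column of the deposited lists is a fold enrichment ratio, and the authors' next columns are −log10 p and −log10 q values; libraries were called separately. No read totals are in the lists, so no depth, interval or floor is given.

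Touching peaks of a library were joined and intersected. Cover is the percent of region length under peaks, and enrichment is cover over the percent of chromosomes 1 to 18 covered. Chromosome extents are the last base reached by any peak or annotated gene. The RefSeq table for Sscrofa11.1, the assembly also named susScr11, gave 18722 coding genes on these chromosomes, without strand, so starts and stops of genes were not told apart. Of the listed genes, those matched by symbol are given with each list. X, Y and unplaced sequences were left out, except as given at the end. Stage effects were tested with permutation tests of F, one-sided, exact over pairings of libraries for H3K27me3 and with 100000 random assignments (seed 1) for H3K4me3. Benjamini-Hochberg adjustment ran over 4 stage tests and over 2 position tests. Python 3.11.15, numpy 2.4.6, pandas 2.3.3, scipy 1.17.1 and matplotlib 3.10.9 were used, and interval and test code was tested on simulated data.

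The regions and gene lists were chosen with earlier results of these data known. Named regions were the 8 longest, the 6 of 1 kb or more most covered by other H3K27me3 libraries, and the 6 longest with no other H3K27me3 cover, with untreated 4-cell H3K4me3, with siKDM5BC but no untreated H3K4me3, or with 2-cell H3K27me3. Named windows were the 6 of 1 Mb with most region length, and named genes the 12 with most region length within 5 kb of the body and list members with a region at an end. Regions with 8-cell H3K4me3 and at most 5 other libraries, and genes by region length at an end, were added after their values were seen. Alternatives were peak strength, joining of peaks under 1 kb apart, a minimum of 1000 bp, regions from 1 library, each library left out, a replicate block, other cover limits, distances and end zones, and, chosen after seeing the data, leaving out the regions covered in 26 or more libraries and the block and left-out libraries for the position tests. 1 named gene and 1 named window are not reported here. No DNA sequence is shown because no genome was used.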

Additional observations from a re-analysis of the deposited data

Results flagged for a closer look

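Chromosome X lay outside every comparison above. The same rule gave 105 shared 4-cell H3K27me3 intervals on it, 64.2 kb in all, or 8.34 per 10 Mb, against 25.5 per 10 Mb on chromosomes 1 to 18. The sex of the embryos in each library is not labelled, so X copy number was not considered. Dixon's test was not run because every group has 2 libraries.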

How the results depend on the processing

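Over the alternatives for the main results, 140 repeats kept direction and call, 12 lost the call, 1 reversed and 28 values moved. With peaks of −log10 q of 2 or more, 818 regions (1.02 Mb) were left, 361 held by another group, with 85.6% of length distal, and the 8-cell minus 2-cell difference in H3K4me3 log2 enrichment was 1.16 (permutation p = 0.135). With −log10 q of 3 or more, 75 regions (0.220 Mb) were left, 57 held by another group, with 75.6% distal and 9.42% in the end zone, and that difference was −4.40. At a 1000 bp minimum there were 1264 regions (2.12 Mb), 702 held by another group, with 84.7% distal. From 1 4-cell library at a time there were 18413 to 27972 regions (15.8 to 24.96 Mb), 5154 to 6604 held by another group, with 87.5% distal and 10.2% to 11.7% in the end zone. The distal share was 86.1% with joined peaks, 86.6% without the most widely covered regions, 92.4% beyond 2.5 kb and 41.6% beyond 50 kb. The end zone held 5.32% within 2 Mb and 19.2% within 10 Mb. Leaving out each library gave an 8-cell minus 2-cell difference in H3K27me3 cover of 15.7 to 47.4 points (exact p 0.00423 to 0.181). Why these values moved was not tested, beyond fewer or more regions entering. Of 126 repeats of the counts held by single groups, 40 stayed within 1.5 times and 86 moved. With shorter and with longer bins, 1.70% and 1.275% of bins were held by 8-cell H3K4me3.

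Replicate numbers did not pair the libraries: deviations of same-numbered libraries correlated between −0.0445 and 0.0805 over 91 pairs of groups. With the replicate block, that difference of 32.3 points had permutation p = 0.0583, and no other stage or position call changed. Unknown depth and short, weak peaks limit all of these counts.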
